A study of Cricetiscus sungorus with 16 samples.

Results

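The transcripts described here are those whose array signal was lowest in the ovaries of 8-wk-old Siberian hamsters kept in short days. A transcript was taken when its mean in that group lay at least 0.7 log2 units under the mean of each of the other 3 groups and at least 1 under that of long-day ovaries of the same age. On each of the 4 slides, the short-day array at 8 wk also had to be the lowest of the 4. These conditions were met by 38 of 20143 transcripts tested, out of 33272 transcript identifiers on the array. They were thus selected on the measured differences between short-day ovaries at 8 wk and every other group, and those differences are given as a description, without a test.

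Both ovaries of each female hamster gave 1 RNA sample, and each sample was hybridised to 1 single-colour mouse array, with 4 hamsters in each of 4 groups. The long-day groups (LD) had 16 h of light per day from gestation on and were sampled at 3 or 8 wk of age. The short-day groups (SD) had 10 h of light per day from gestation on and were sampled at the same ages. For the SD group at 8 wk the labels conflict: 10 h of light stands in the descriptions and 16 h in the titles and treatments, which nevertheless carry the abbreviation SD. The group was taken as SD. The labels name neither a strain nor a genotype. Each slide carried 1 array of every group, and a group occupied 1 fixed position, so that effects of position and of group cannot be told apart.

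The Siberian hamster breeds by season. In short days the longer nightly release of melatonin lowers the output of gonadotropins by the pituitary, and puberty is delayed. The ovary holds oocytes in follicles, where granulosa and theca cells divide and make steroid hormones and inhibin-family proteins as follicles grow under follicle-stimulating and luteinising hormone, and the last stages of that growth depend on gonadotropins most.

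The deposited files pair the probes with transcript identifiers and not with gene symbols. Transcripts are therefore named by identifier alone, only a few are named, and no function can be stated for them. For the same reason the tissue could not be checked against ovarian markers, and markers of blood, oviduct, fat or muscle could not be read. The probes were designed on mouse transcripts, and it was not tested whether the hamster transcripts they bound were the matching ones. In whole ovaries, fewer cells of a type and less RNA per cell cannot be told apart. Levels are log2 signals after subtraction of the array's 75th percentile, and each transcript is compared only with itself, because levels of different probes cannot be set against each other.

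The array software marked between 58.0% and 75.7% of the 41174 probes as well above background. The intensity at the 75th percentile was between 282 and 1049. Slide 1 was the dimmest, and 775 to 1278 of its spots per array were marked as outliers and left out, against 64 to 207 on the other slides. No spot was saturated. Over all transcripts tested, the median deviation of an array from the mean of the 3 other groups stayed between −0.10 and 0.24.

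How far the signal lay below that of the other groups was measured as the gap, the distance of the group's mean under the lowest of the other 3 group means. The median gap of the 38 transcripts was 1.22 log2 units, or 2.33-fold. It ranged from 0.76 to 3.13, with 32 transcripts at 1 or more and 6 at 2 or more. Against LD ovaries at 8 wk the median difference was −1.51, and against SD ovaries at 3 wk it was −1.37. These correspond to signals 2.85-fold and 2.58-fold lower.

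**Figure D1:**
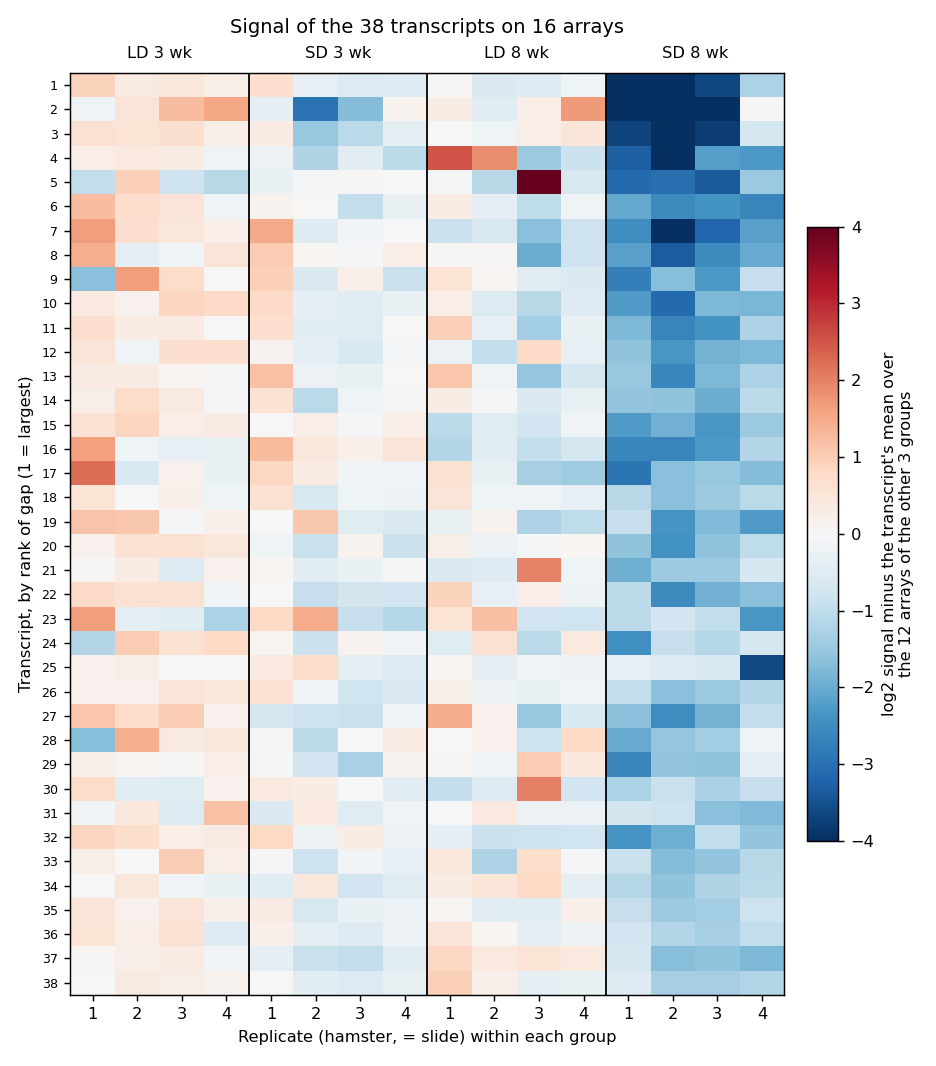
Signal of the 38 transcripts (rows, ordered by the gap) on the 16 arrays (columns, by group and replicate). Values are log2 signal minus the transcript's mean over the 12 arrays outside SD at 8 wk. The colour scale is capped at 4 log2 units either way, and the SD columns at 8 wk are the bluest in most rows, with replicate 4 paler than the others in several of the uppermost rows.

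NM_008381 had the largest gap, 3.13. In LD ovaries it stood at 7.14, 6.59, 6.68 and 6.45 at 3 wk and at 6.26, 5.63, 5.70 and 6.07 at 8 wk. In SD ovaries it stood at 6.90, 5.89, 5.68 and 5.71 at 3 wk and at 1.85, 1.74, 2.60 and 4.96 at 8 wk. All 4 SD arrays at 8 wk lay below the 12 others, and replicate 4 lay 2.36 above the next highest of its group. The gap came to 8.75-fold, with a standard deviation over 4 hamsters of 1.499 in SD ovaries at 8 wk and of 0.30 to 0.58 in the other groups. Over the alternatives run it lay between 1.92 and 3.85 log2 units. A further probe of the same transcript was also lowest in SD ovaries at 8 wk, with a gap of 0.70, and the lowest value came from averaging both probes. The highest came from leaving out SD 8-wk replicate 4, and without slide 1 the gap was 2.66.

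NM_008380 had the second largest gap, 2.55. In LD ovaries it read 0.86, 1.52, 2.26 and 2.57 at 3 wk and 1.30, 0.58, 1.27 and 2.73 at 8 wk. In SD ovaries it read 0.61, −1.95, −0.73 and 1.14 at 3 wk and −4.08, −4.27, −3.82 and 1.05 at 8 wk. The first 3 SD hamsters at 8 wk lay below all arrays of the other groups, and the fourth lay among them, at 0.09 under the SD array at 3 wk on its slide. The mean difference from LD at 8 wk was −4.25 log2 units, the largest among the 38, and it ranged from −5.38 to −1.68 over the slides. The gap was 1.64 with normexp, another background correction, and 1.84 without slide 1. Normexp was run with an offset of 50, which shrinks log2 differences of dim signals. With single arrays left out it lay between 2.05 and 3.83, the extremes being SD 8-wk replicates 2 and 4, and it was 3.12 without SD 3-wk replicate 2.

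**Figure D2:**
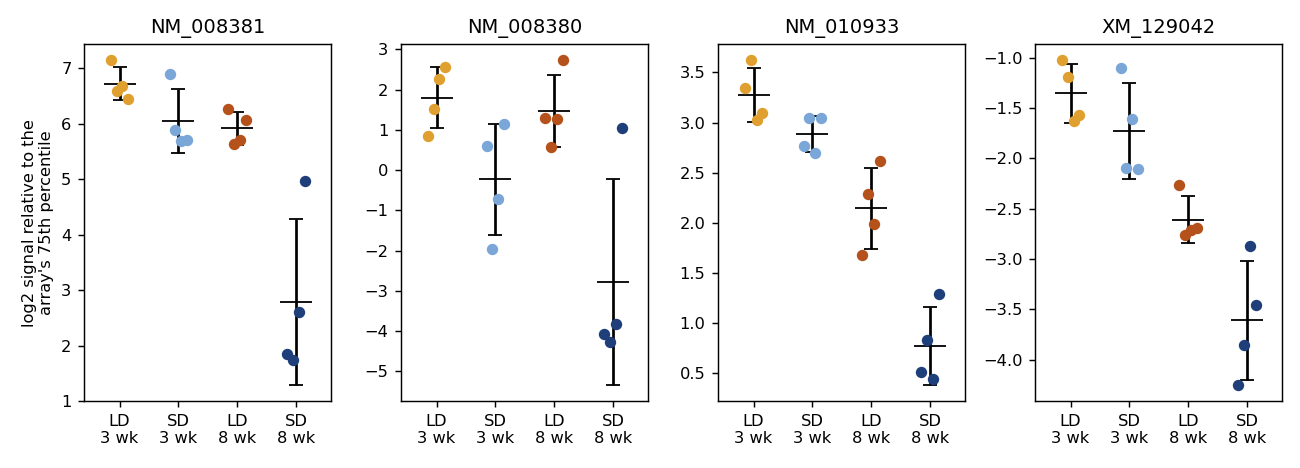
Log2 signal of 4 transcripts on each array (dots, 4 hamsters a group), with the group mean and standard deviation (horizontal mark and bar); the axes differ between panels and do not start at 0. In NM_008381 and NM_008380, chosen for the 2 largest gaps, SD 8-wk replicate 4 stands above its group at 4.96 and 1.05, while in NM_010933 and XM_129042, which passed the test of the LD age change, the LD arrays at 8 wk all lie below those at 3 wk.

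The transcript with the third largest gap, 2.47, showed the same hamster apart. Its first 3 SD arrays at 8 wk lay between −0.57 and 0.0033, and replicate 4 lay at 3.01. Over the 38 transcripts, SD 8-wk replicate 4 stood more than 1 log2 unit above the 3 others of its group in 7, among them 4 of the 6 with the largest gaps. Each of the other 15 arrays did so in at most 4 transcripts. Those counted among the 6 for SD 8-wk replicate 4 include NM_009704, for which no SD array at 8 wk was well above background. On this array 58.4% of probes were well above background, against 63.6%, 65.2% and 69.0% on the other arrays of slide 4. Replicate 4 was the highest SD array at 8 wk in 21 of the 38, and replicate 2 was the lowest in 20. The mean of the group is thus pulled towards replicate 4 in several of the transcripts of the largest gaps.

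As the condition on slides requires, the low values were present on every array of the group. The median over the 38 transcripts of the deviation from the mean of the other 3 groups was −1.73, −1.83, −1.71 and −1.21 on the SD arrays at 8 wk. It was 0.45, 0.37, 0.34 and 0.17 on the LD arrays at 3 wk and 0.23, −0.21, −0.44 and −0.27 on the LD arrays at 8 wk. On the SD arrays at 3 wk it was 0.18, −0.41, −0.40 and −0.21. Slide 1 gave the highest median in each of the other 3 groups. Within slides, the median difference between SD and LD at 8 wk was −1.86, −1.85, −1.37 and −1.03 on slides 1 to 4. That between SD at 8 and 3 wk was −2.09, −1.71, −1.31 and −0.997.

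**Figure D3:**
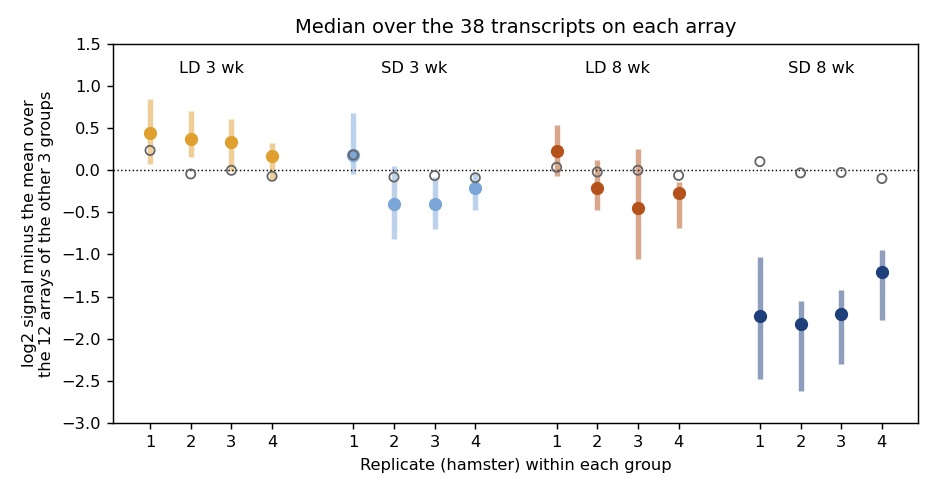
Median over the 38 transcripts on each array (filled dots) with the 25th to 75th percentile (bars). Values are log2 signal minus the mean over the 12 arrays outside SD at 8 wk. Open circles give the median over all transcripts tested. The SD arrays at 8 wk lie between −1.83 and −1.21, and the open circles stay between −0.10 and 0.24 on all 16 arrays.

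In 20 of the 38 transcripts all 4 SD arrays at 8 wk lay below the 12 others. Of the 18648 transcripts measured on all arrays, 140 (0.751%) had this order. Since the choice of the 38 already required the lowest place on each slide, nothing is read from the comparison of these shares. In the other 18, at least 1 SD array at 8 wk lay above the lowest array of the other groups, on a different slide.

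The spread within groups was wider for these transcripts than for transcripts at large, a difference that was not tested. Their median standard deviation over 4 hamsters was 0.60 in SD ovaries at 8 wk, 0.55 in LD ovaries at 8 wk, 0.49 in SD and 0.38 in LD ovaries at 3 wk. Over all transcripts tested the median standard deviation lay between 0.29 and 0.33 in the 4 groups.

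At the edges of the conditions, the 2 smallest gaps among the 38 were 0.757 and 0.779, and the 2 nearest transcripts left out by that condition alone had 0.697 and 0.645. The 2 smallest distances under LD at 8 wk were 1.0002 and 1.01 inside and 0.980 and 0.978 outside. The smallest margins under the next lowest array of a slide were 0.02 and 0.07 inside, and the nearest outside lay above that array by 0.09 and 0.10. A further 16 transcripts met all but the condition on slides, and 4 met every condition on their measured arrays but lacked a value on 1 or more. Leaving out an array also loosens the condition on slides, so a higher count does not by itself show that membership depended on that hamster. The conditions gave 64 transcripts when SD 8-wk replicate 4 was left out and 61 when SD 8-wk replicate 1 was. Each time 35 of the 38 were among them. For LD 8-wk replicates 3 and 4 the counts were 59 and 58, with 36 of the 38 each time. Leaving out LD 8-wk replicate 1 gave 42, and 32 of the 38 were among them, the fewest for any single array. With normexp, whose offset shrinks differences of dim signals while the limits stayed the same, the conditions gave 19, all among the 38.

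Signals near background limited some of these values. Of the 38 transcripts, 27 were well above background on all 16 arrays, and 11 had 1 or more SD arrays at 8 wk that were not. With signals of the latter kind raised to the lowest signal well above background on their array, 34 kept a gap of at least 0.7, and 31 of them also lay at least 1 under LD at 8 wk. All 38 had passed a filter that asked for signal well above background on all 4 arrays of some group, and without this filter the conditions gave 39 transcripts, the 38 among them.

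In 3 transcripts every SD array at 8 wk failed the background mark, and these were singled out after their values were seen. For them only a bound is given. It sets the mean of the brighter group against a floor, which on each SD array is the dimmest signal among marked probes, or the transcript's own signal where that is higher. NM_183191 stood at −1.08, −1.74, −5.07 and −4.46 in LD ovaries at 8 wk, and the SD signal of that age was at least 4.57-fold lower. Its LD hamsters at 8 wk fell into a high and a low pair. Leaving out LD 8-wk replicate 1 gave a bound of 2.88-fold, and leaving out LD 8-wk replicate 3 gave 7.23-fold. NM_009704 stood at −3.93, −4.96, 0.26 and −4.49 in LD ovaries at 8 wk, and the SD signal of that age was at least 4.005-fold lower. This bound rested on 1 hamster, since it was 1.77-fold when LD 8-wk replicate 3 was left out. NM_198192 stood at −3.84, −4.22, −3.95 and −4.79 in LD ovaries at 3 wk, all well above background, but passed that mark on only 2 LD arrays at 8 wk. It was at least 2.11-fold lower in SD ovaries at 8 wk than in LD ovaries at 3 wk. For LD ovaries at 8 wk the ratio to the floor was 1.147, and it was 0.792 without LD 8-wk replicate 1. For SD ovaries at 3 wk, well above background on 1 array, the ratio was 0.803. The bounds therefore do not show NM_198192 to be lower in SD ovaries at 8 wk than in SD ovaries at 3 wk. Against LD ovaries at 8 wk the bound depended on single hamsters of either group.

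Other probes on the array gave a second reading for part of the set. The 38 identifiers had 10 further probes, for 9 of them, and 6 probes of 5 identifiers passed the background filter. All 6 were lowest in SD ovaries at 8 wk, with a median gap of 1.02, and 5 had a gap of at least 0.7. The probe of NM_008381 and another differed from LD at 8 wk by −0.70 and −0.76, short of the distance of 1 in the conditions. The probes that failed the filter had gaps of −0.33, −0.12, 0.42 and 0.52. None of these reached 0.7, and the probes with negative gaps were not lowest in SD ovaries at 8 wk. The probe at −0.12 was well above background on 12 of 16 arrays. All further probes were read on the same arrays and are no separate sample. By kind of identifier, 27 of the 38 (71.1%) were RefSeq mRNAs, against 68.1% of all transcripts tested, and 6 (15.8%) were clone accessions beginning with AK, against 14.8%.

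Among the groups that were not the lowest, the order was far less uniform. LD ovaries at 3 wk had the highest mean in 28 of the 38 transcripts, LD ovaries at 8 wk in 6 and SD ovaries at 3 wk in 4. The group next above SD at 8 wk was SD at 3 wk in 20, LD at 8 wk in 16 and LD at 3 wk in 2. The most frequent full orders were LD at 3 wk, LD at 8 wk, SD at 3 wk (15 transcripts) and LD at 3 wk, SD at 3 wk, LD at 8 wk (13 transcripts), from high to low.

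Only the comparisons that leave out SD ovaries at 8 wk could be tested on these transcripts: the age change in long days, and SD against LD at 3 wk. Both were read from a limma fit over all 20143 transcripts with Benjamini-Hochberg adjustment and a threshold of 0.05. Both use the LD arrays at 3 wk, so agreement between them is no separate evidence, and their values stand side by side here. The conditions asked for a larger distance from LD at 8 wk than from the groups at 3 wk, which works against low values in LD at 8 wk. NM_198192 passed the background filter through the LD arrays at 3 wk alone, which favours lower values in the groups set against them.

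The age change in long days asks whether these transcripts also differed between 3 and 8 wk in the photoperiod that does not delay maturity. Their signal was lower at 8 than at 3 wk in 31 of the 38 (81.6%), with a median difference of −0.42 log2 units and a range from −1.77 to 1.07. Of all transcripts tested, 55.7% were lower at 8 wk, with a median of −0.04. A difference of 2-fold or more downwards was seen in 7 of the 38 (18.4%), against 2.02% of all transcripts. Higher by as much were 1 of the 38 and 282 of all 20143 transcripts. The 1 was NM_009704, whose differences on slides 1 to 4 were 0.91, −2.05, 4.94 and 0.47.

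Past the threshold in limma, 2 of the 38 fell with age in long days (5.26%), where 1.75% of all transcripts tested fell, and none rose, where 1.25% of all did. Over all transcripts the balance of 352 that fell to 251 that rose depended on single hamsters, with 197 to 228 when LD 3-wk replicate 1 was left out and 148 to 150 when LD 8-wk replicate 3 was. It was 98 to 109 with only the LD groups fitted. NM_010933 read 3.34, 3.62, 3.03 and 3.10 in LD ovaries at 3 wk and 1.68, 2.28, 1.99 and 2.62 at 8 wk. The LD groups did not overlap, and SD ovaries at 8 wk lay lower again, at 0.52, 0.83, 0.44 and 1.29. NM_010933 fell 2.19-fold in long days (log2 −1.13, SE 0.22, limma adjusted p = 0.0118, n = 4 and 4), by 0.48 to 1.66 log2 units over the slides.

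XM_129042 read −1.03, −1.19, −1.63 and −1.57 in LD ovaries at 3 wk and −2.27, −2.76, −2.71 and −2.70 at 8 wk. Again the LD groups did not overlap, and the SD arrays at 8 wk lay lower still, between −4.25 and −2.87. It fell 2.39-fold in long days (log2 −1.25, SE 0.28, limma adjusted p = 0.0224). The call was lost with normexp (limma adjusted p = 0.122). It was also lost when LD 3-wk replicate 1 or 4 was left out, and when any of LD 8-wk replicates 2, 3 and 4 was, which left 1 of the 38 called each time (limma adjusted p 0.0560 to 0.0697 for XM_129042). NM_010933 was called in 26 of 27 alternative settings, with limma adjusted p from 0.00147 to 0.0505.

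With slide as a block in the fit, 7 of the 38 fell in long days (18.4%), against 7.14% of all transcripts. Both named transcripts were among them, 6 of the 7 were lower on 4 of 4 slides, and their differences ranged from −1.77 to −0.49. The transcript with the largest difference, −1.77, missed the threshold without the block at a limma adjusted p of 0.0503. In 5 of the 38 (13.2%) all LD arrays at 8 wk lay below all those at 3 wk, as in 4.75% of all transcripts measured on these arrays.

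NM_009895 was the single member of the 38 with all LD arrays at 8 wk above those at 3 wk (2.63%, against 3.28% of all transcripts), and was singled out for this after its values were seen. It read −3.30, −3.12, −3.01 and −3.45 in LD ovaries at 3 wk and −2.52, −2.95, −2.82 and −2.96 at 8 wk. The difference of 0.41 (SE 0.24) did not pass the threshold in limma (adjusted p = 0.540). In SD ovaries the same transcript read −3.76, −4.23, −4.34 and −3.81 at 3 wk and −4.05, −5.06, −4.98 and −5.17 at 8 wk.

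Set beside the age change in short days, which chose the 38 and is given without a test, 31 were lower at 8 wk in both photoperiods. For these 31 the median difference was −0.48 in LD and −1.67 in SD ovaries. The other 7 were higher at 8 wk in LD and lower in SD ovaries, 3 of them by more than 0.3 in LD. Over the 38, the SD age change exceeded the LD age change downwards by a median of 1.12 log2 units.

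Over single slides the LD age change was uneven. The 38 had a median difference of −0.04 on slide 1, −0.62 on slide 2, −0.94 on slide 3 and −0.38 on slide 4. Lower at 8 wk were 20, 32, 30 and 29 of them. On slide 1, 63.6% of all transcripts were lower at 8 wk, so the share there was below that of transcripts at large. On slides 2, 3 and 4, 45.9%, 54.9% and 47.2% of all transcripts were lower. On 4 of 4 slides 10 of the 38 (26.3%) were lower, against 17.4% of all transcripts, and 1 (2.63%) was higher, against 10.6%.

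At 3 wk, the comparison of SD with LD ovaries asks whether these transcripts already differed at the younger age. Their signal was lower in SD in 33 of the 38 (86.8%), with a median difference of −0.48 log2 units, or 1.39-fold, and a range from −2.03 to 0.42. Of all transcripts tested, 61.7% were lower in SD, with a median of −0.05. No transcript passed the threshold in limma (0%), among the 38 or among all, with or without the block. At an unadjusted p under 0.05, 7 of the 38 (18.4%) were lower and none higher, against 1.01% and 0.576% of all transcripts. Past that p in either direction were 15 of the 38 when SD 3-wk replicate 1 was left out, against 419 of 21282 transcripts. Without slide 1 these were 14 of the 38 and 829 of 21943, and with only the groups at 3 wk fitted 13 and 359 of 20143. They fell to 5 of the 38 without LD 3-wk replicate 3 (247 of 20211 transcripts) and without SD 3-wk replicate 3 (259 of 20249). With the block, 13 of the 38 (34.2%) and 4.05% of all transcripts were lower at such a p.

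**Figure D4:**
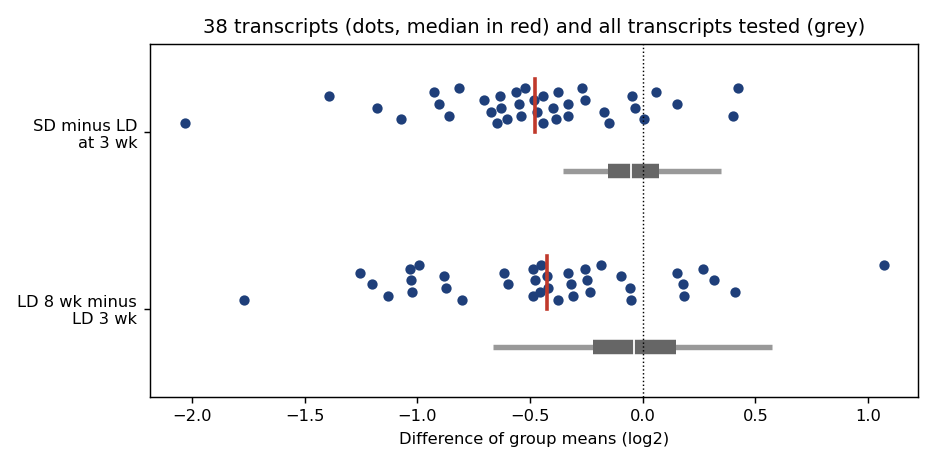
Differences of group means of the 38 transcripts (dots, placed at different heights for legibility; red line, their median) in the 2 comparisons that do not use SD ovaries at 8 wk, in log2 units. Grey bars give the 25th to 75th (dark) and 5th to 95th (light) percentiles of all 20143 transcripts tested and the white tick their median; the medians of the 38 lie at −0.48 and −0.42.

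The largest difference at 3 wk belonged to NM_008380, whose values are given above, at −2.03 (SE 0.97, limma adjusted p = 1, and 0.765 with slide as a block). It was lower in SD on all 4 slides, by 0.25 to 3.47, and the SD and LD arrays at 3 wk overlapped. NM_008381 differed by −0.67 (SE 0.52, limma adjusted p = 1), with SD replicate 1 at 6.90 among the LD values. In 6 of the 38 (15.8%) all SD arrays at 3 wk lay below all LD arrays, against 1.05% of all transcripts measured on these arrays, and in none did they all lie above, as in 0.326% of all transcripts. NM_198192, among the 6, passed the background filter through the LD arrays at 3 wk alone, so the filter favoured this order for it.

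Within slides the difference at 3 wk had the same sign on average on each of them. The median over the 38 was −0.26, −0.72, −0.54 and −0.40 on slides 1 to 4, and 26, 32, 31 and 31 transcripts were lower in SD. Of all transcripts, 57.0%, 56.6%, 63.1% and 53.1% were lower in SD on these slides. On 4 of 4 slides 18 of the 38 (47.4%) were lower in SD, against 14.3% of all transcripts, and none was higher on all 4, against 4.84%. Without slide 1 the median difference was −0.69, and with single arrays left out it lay between −0.62 and −0.41. The 38 share the same arrays and are not independent of each other, so these counts describe the set and carry no p-value.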

How the data were processed

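Both ovaries of 16 hamsters were profiled on 1-colour mouse arrays, per the labels' protocols. The authors' scanner files, extracted with Agilent Feature Extraction 10.5.1.1 per the file headers, give a deposited intensity for every spot, linear, corrected for background within an array and not normalized between arrays. Per the file headers, the other columns used hold outlier, saturation and background flags and median intensities. The authors' deposited table of intensity values matched these after rounding, except for 4 cells of 1 column, and served as an alternative. Its column medians run from 28.8 to 104, and it is linear and not centred.

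Samples were grouped by their descriptions. The labels give an animal code per sample, so arrays were taken as separate hamsters, and replicates are numbered by slide. Intensities were taken as log2 minus each array's 75th percentile over spots that were neither controls nor outliers, and spots of a probe were averaged. Kept were probes well above background on all 4 arrays of a group (24998, 60.7%), measured on at least 12 of 16 arrays and 2 of each group and slide. The brightest stood for its identifier. A member needed a value on all 16 arrays. Groups were compared in limma 3.58.1 (lmFit, eBayes with trend, R 4.3.3) over all arrays, with Benjamini-Hochberg adjustment at 0.05, tested on simulated data. Slide was left out of the fit and tried as a block. Arrays of a slide deviated from their group means together (median correlation 0.451, lowest 0.224, over 24 pairs), so slides pair the samples.

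The members, lists and tests were chosen with earlier results of these data known. Named by rule were the 2 of the largest gap; those past the threshold in a tested comparison and those said to be singled out were added. Gene lists and cell type markers could not be matched without symbols. Alternatives covered normalization, value table, background correction, filter, outlier spots, probe, trend, block, groups fitted and left-out arrays or slide 1. Added after seeing the data were the percentile over probe means, members with missing arrays, and leaving 266 spots of extreme local background out of normexp (offset 50). The number of arrays limits the precision.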

Additional observations from a re-analysis of the deposited data

Results flagged for a closer look

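For the 8 transcripts named and the median over the 38, the 36 sets of 4 values were searched for a hamster far from the rest of its group. Replicate 1 stood apart at 6.90 for NM_008381 in SD ovaries at 3 wk, and replicate 4 at 1.05 for NM_008380 in SD ovaries at 8 wk. NM_009704 had replicate 2 at −2.91 in LD ovaries at 3 wk. XM_129042 had replicate 1 at −2.27 in LD ovaries at 8 wk, and NM_009895 had replicate 1 at −4.05 in SD ovaries at 8 wk. Chance marks about 1 in 20 such sets. Over the 38 transcripts and 4 groups, 12 of 152 sets had a value this far out, 5 of them in SD ovaries at 8 wk, 3 in LD ovaries at 8 wk and 2 in each group at 3 wk.

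NM_009895 was higher at 8 than at 3 wk on 4 of 4 slides in LD ovaries and lower on 4 of 4 in SD ovaries. The SD change minus the LD change was −1.19 log2 units. This difference was not tested, since the choice of the transcripts fixed the direction in SD ovaries.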

How the results depend on the processing

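The conditions gave 38 transcripts, 19 with normexp and 38 to 64 with single arrays left out, which also loosens the conditions. In the age change in long days, limma called 603 of all transcripts. The count was 927 with outlier spots kept, 207 with only these groups fitted, 1191 without slide 1 and 223 to 657 with single arrays left out (LD 3-wk replicate 4, 223; LD 8-wk replicates 2, 3 and 4, 346, 298 and 309). Of the 38, 2 were called, and 1 to 3 with single arrays left out, with a median difference from −0.53 to −0.35. At 3 wk limma called 0 of all transcripts (at an unadjusted p under 0.05, 319, and 203 with normexp, 534 without the filter on dim probes, 829 without slide 1, 531 and 508 without LD 3-wk replicate 1 or 2), and 0 to 1 with single arrays left out, the 1 when this was LD 3-wk replicate 2. Of the 38, 0 were called there in any setting run. Their median difference was −0.62 to −0.41 with single arrays left out and −0.69 without slide 1. SD and LD at 8 wk differed in 195 of all transcripts, 83 with only these groups fitted and 117 to 245 with single arrays left out (LD 8-wk replicate 2, 117; SD 8-wk replicates 2 and 3, 120 and 122). The SD age change had 1828, 2866 without slide 1 and 1122 to 2174 with single arrays left out (replicate 2 at 3 and 8 wk, 1122 and 1156). The difference of the age changes had 13, 8 with all probes averaged, 4 without slide 1 and 6 to 49 with single arrays left out (49 for SD 8-wk replicate 4, 30 for LD 8-wk replicate 3). With slide as a block, the counts were 2215 in long days (7 of the 38), 0 at 3 wk, 504 at 8 wk, 4515 for the SD age change and 34 for the difference of the age changes. The causes were not tested. Signals near background limit 11 of the 38, and 4 hamsters a group limit all values.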
